A study of Homo sapiens with 4 samples.

Results

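One-block genes are protein-coding genes whose YTHDF1-enriched windows all touch and so form a single compact block in the gene. They were taken from a table of 50 bp windows enriched in YTHDF1 immunoprecipitates over input, by keeping the coding genes with 3 to 8 listed windows and asking whether each window began where the previous one ended. Of 2716 such genes, 194 (7.14%, Wilson 95% interval 6.23% to 8.17%, counting error only) formed one block, with 717 windows in all. The other 2522 genes, with 12067 windows, had windows in separate places and are called several-block genes here. The whole table held 26819 windows in 7550 genes, of which 6679 were protein-coding.

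The question of the study was which transcripts YTHDF1 binds in cells that respond to interferon-γ (IFN-γ), and RNA immunoprecipitation sequencing (RIP-seq) in SNU638, an established human gastric cancer cell line, was used to answer it. There were 2 IP-YTHDF1 and 2 Input libraries, labelled as biological replicates, and both groups came from cells that overexpressed YTHDF1, spent 24 h without serum and were then given IFN-γ at 10 ng/ml over 24 h. The methods name an antibody to the FLAG tag for the pull-down, so the overexpressed protein is the one assayed. No library without IFN-γ, without YTHDF1 overexpression or from a control antibody was analysed here. The values describe enrichment over input in the treated cells and not a response to the treatment. The table gives 1 signal value, 1 p-value and 1 q-value per window for both groups together. The depth of each library and the spread between replicates are therefore unknown, and since no scale comes with the signal value, only its order and its differences are used. The table holds no expression level, and the label of the cell line could not be checked against marker genes. The one-block genes were chosen by the positions of windows with a q-value of at most 0.05, which come from the same contrast as the signal values, and every signal value below is a description without a test.

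YTHDF1 is a cytoplasmic protein with a YTH domain, the fold that recognises N6-methyladenosine (m6A) in RNA. m6A is written by the METTL3 and METTL14 methyltransferase on adenosines within the DRACH consensus, and YTH readers act on the translation and decay of the marked transcripts. IFN-γ signalling induces IRF1, a transcription factor for antigen presentation and other interferon genes.

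To show what the RNA under these blocks looks like, the sequence was read where the RefSeq promoter table (GRCh38.p14), which ends shortly after annotated gene starts, covered a window whole. The table had an entry for 153 of the 194 genes, and it covered 29 windows of 21 one-block genes. Some windows were covered only by the entry of another gene, as in AGPS, EXOC5, YTHDC2, SCO1 and CEBPZ. The search was for DRACH, in letters A, G or T, then A or G, then A and C, then A, C or T, on the gene's strand, with overlapping matches counted. A match was found in 9 of the 29 windows (31.0%), in 7 genes. The following stretches are the motif-bearing stretches of these 7 genes, one per gene, in order of window signal value, and the capitals mark 1 DRACH match in each.
PLK4: gcttggagcgctgcctcgaagGGACTgcgt
DENND4C: caggcgcagaccGGACTgaggcggcggcgg
AGPS: cGGACCgggaccgggacccggacccggacc
IL6ST: tctgcggagaaggatcTGACAgtgttccgg
EXOC5: ccgggaggcagcTGACAagcgtttgcggct
YTHDC2: ctcccgtgcggagAGACCatctcttcaggg
SCO1: gcccagccgaggGGACTgcgagagtcttgc

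These stretches lie in PLK4 at chr4:127881063-127881092 (plus strand), DENND4C at chr9:19230686-19230715 (plus), AGPS at chr2:177392857-177392886 (plus), IL6ST at chr5:55994945-55994974 (minus), EXOC5 at chr14:57268824-57268853 (minus), YTHDC2 at chr5:113513864-113513893 (plus) and SCO1 at chr17:10697387-10697416 (minus). The AGPS stretch is a repeat, and its window holds 5 matches. The windows that contain the stretches had signal values from 1.54 (SCO1) to 2.73 (PLK4). In PLK4, the kinase that starts centriole duplication, the window shown was the strongest of the block, whose values were 1.91, 1.40, 2.73 and 1.70 from 5′ to 3′. In the other 6 genes another window of the block was higher.

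The covered windows without a match include those of higher signal. CEBPZ and MTMR12 were picked after their values had been seen. CEBPZ had 3 covered windows with values 3.37, 3.07 and 1.88, and none of them held DRACH. The covered window of MTMR12, a phosphatase-like protein of the myotubularin family, had a value of 3.32 and held none either. In several-block genes 198 of 495 covered windows (40%) held DRACH. Among the first 50 bases after the start in 22199 promoter-table entries of coding genes the share was 44.8%. Covered windows need not lie in these first bases, and some lie in the entry of another gene, so the stretches are not fully alike. For the core GGAC the shares were 17.2% of one-block windows, 22.6% of several-block windows and 19.8% of entries. The covered one-block windows were rich in G and C, with a median of 70.0%, against 72.0% in several-block genes and 64.0% in the entries. For DRACH the one-block share was thus not the higher one in either comparison. A match is a description of letters and not a site, and these windows are a small part of the 717.

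IRF1 and YTHDF1 were both one-block genes. With a q-value limit of 0.01 each would lose a window and fall below the 3 windows of the rule. In IRF1 (ENSG00000125347, chr5:132486959-132487108, minus strand) the 3 windows had signal values of 2.37, 0.76 and 1.85 from 5′ to 3′. The first was listed with a q-value of 0, the second had a q-value of 0.0432 and the third 3.27e-06. The middle window of IRF1 was the lowest value of all 717 windows, and its neighbours on both sides were higher. The block covered 3 of 79 windows tested in the gene, and its strongest window began 3665 bp from the 5′ end of a 9165 bp gene. On the opposite strand, windows of AC116366.3 and of the long non-coding RNA gene C5orf56 overlapped the block, with values of 1.28 and 1.05.

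In YTHDF1 itself (ENSG00000149658, chr20:63215979-63216128, minus strand) the values were 1.79, 1.92 and 1.01, with q-values of 0.00692, 1.47e-05 and 0.0422. The block began 3 bp from the 5′ end of the gene and held 3 of 70 windows tested. Its strongest value was higher than that of 11.3% of the one-block genes. YTHDF1 was overexpressed in the cells of all 4 libraries, and the part of this in its listed windows was not tested.

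YTHDC2, an RNA helicase with a YTH domain of its own, was the other m6A gene with one block (ENSG00000047188, chr5:113513844-113514043, plus strand). Its 4 windows read 1.72, 1.92, 2.40 and 2.40, rising toward the 3′ side, and the block began 150 bp from the 5′ end of the gene. The list of m6A writers, erasers and readers held 21 genes, of which 19 had a listed window and 9 had 3 to 8. The 2 one-block genes were 22.2% of those 9, beside 7.14% over all coding genes with 3 to 8 windows. This is a difference of 1 or 2 genes. The IFN-γ list held 35 genes, 22 with a window and 12 with 3 to 8 windows, and IRF1 was its only one-block gene (8.33%).

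Further interferon and cytokine genes and a caspase gene among the one-block genes were picked after their values had been seen. IFI44, an interferon-induced gene, had values of 1.68, 2.32, 3.19 and 1.66. IRF7, the regulator of type I interferon genes, read 1.23, 2.16 and 1.74, and its strongest window ended 98 bp from the 3′ end of the gene. Both therefore peaked at an inner window, IFI44 close behind the 5′ end and IRF7 close to the 3′ end. IL6ST, the shared signalling subunit gp130 of the interleukin-6 receptor family, had 1.86, 3.02, 3.45 and 2.02. CASP8, the initiator caspase of death receptors, had 1.84, 3.13 and 2.69. These strongest values lie on both sides of the one-block median of 2.48.

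Among genes of mRNA decay, 2 of 12 with 3 to 8 windows had one block. BTG1, an antiproliferative protein that binds the CCR4-NOT deadenylase, had 5 windows of 1.24, 2.11, 2.87, 2.67 and 1.63, a single rise and fall that began 69 bp from the 5′ end. CNOT9, a subunit of CCR4-NOT, had 2.22, 2.00 and 1.70, highest at its 5′ window, 11741 bp into the gene. The list of immediate early and short-lived regulators had 14 genes with 3 to 8 windows and 0 with one block. The Frizzled, FOX, HOX, protocadherin and PPP1R lists also had 0, out of 4, 6, 4, 5 and 5 genes, and no SOX gene had 3 to 8 windows. At the background of 7.14% lists of this size hold about 1 one-block gene or none.

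Replication-dependent histone genes gave the highest share of one-block genes of the lists, with 6 of 15 (40%), beside 7.14% over all coding genes with 3 to 8 windows. These 6 genes had 8 to 19 tested windows, and among all genes in the part with the fewest tested windows (5 to 33) the share was 15%. HIST1H4H had 6 windows from 2.14 to 2.99 and HIST2H3C 5 windows from 1.81 to 3.16. In HIST1H2AC the 8 windows ran from 2.42 at the 5′ side to 1.23 at the 3′ side. HIST1H3F and HIST1H2BI differed from these: all 7 windows of the former and all 6 of the latter were listed at 1.00, with q-values of at most 0.0391 and 0.00186. Histone genes are short and made without introns, and few windows were tested in them. In HIST1H3F 7 of 8 tested windows were listed (87.5%), in HIST1H2BI 6 of 8 (75%) and in HIST1H4H 6 of 10 (60.0%). Over all genes with 3 to 8 windows 9.5% of 134513 tested windows were listed. Histone genes of a family are close copies of each other, and how reads that match several of them were counted is not given in the sources used here, so these values are uncertain.

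Of the remaining lists, zinc finger genes named ZNF had 6 one-block genes of 100 (6.0%) and solute carriers 6 of 45 (13.3%). TMEM genes had 4 of 29 (13.8%) and cytosolic ribosomal protein genes 1 of 11 (9.09%). The share over all coding genes with 3 to 8 windows was 7.14%. The ZNF share was near this background, and the counts of the other lists differed from it by about 3 genes or fewer. Keratins had 1 of 3, the proteasome 1 of 4 and the KLHL and KBTBD genes 1 of 13. ZNF286A had values of 3.15, 3.69, 3.76, 2.87 and 3.23, and ZNF638 had 7 windows between 1.51 and 2.68. SLC25A46, a mitochondrial outer membrane carrier, peaked in the middle with 1.75, 2.85 and 1.96, as did ZNF322 with 1.96, 2.79 and 1.88. SLC25A24, the mitochondrial ATP-Mg/phosphate carrier, was nearly flat with 2.63, 2.70 and 2.76. SLC30A5, a zinc transporter, rose late, with 1.85, 1.60, 2.58 and 2.72. KLHL7, a substrate adaptor of the CUL3 ubiquitin ligase, had 1.52, 2.20, 2.01 and 2.38. The TMEM genes were low, with strongest values of 2.07 in TMEM184B, 1.99 in TMEM200A and 1.94 in TMEM19. KRT19, an epithelial keratin, had 0.77 and 0.93 before 2.21 in the last window, which ended at the annotated 3′ end of the gene.

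**Figure D1:**
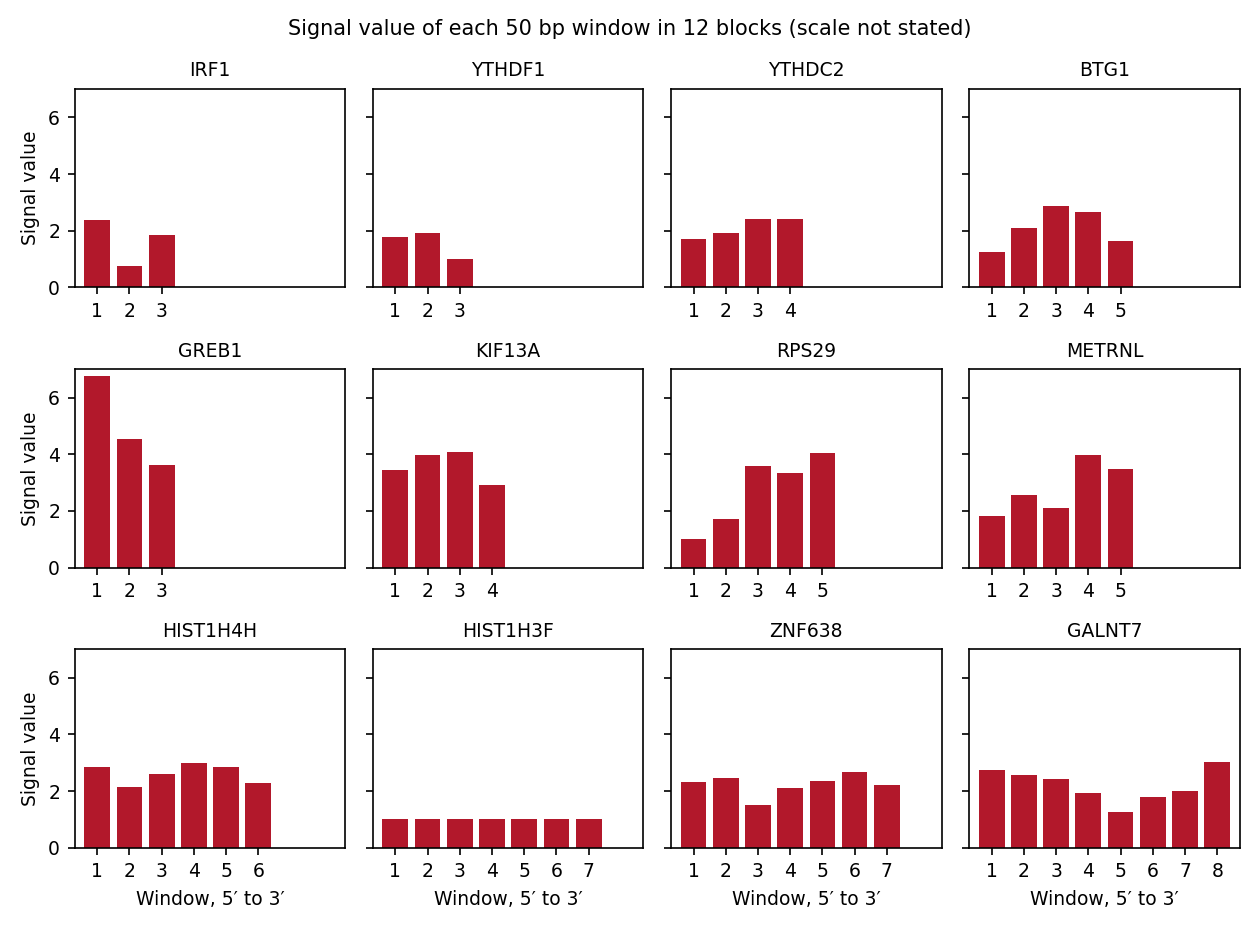
Signal value (scale not stated) of each 50 bp window, in order from 5′ to 3′, for 12 one-block genes named in the text, 1 bar per window. GREB1 fell from 6.76 to 3.62, IRF1 dipped to 0.76 in its middle window, BTG1 rose to 2.87 and fell again, and HIST1H3F was flat at 1.00.

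GREB1, a target gene of the estrogen receptor, had the strongest window of the class, with 6.76, 4.53 and 3.62 from 5′ to 3′ (ENSG00000196208, chr2:11584791-11584940, plus strand). Even its weakest window, at 3.62, was above the strongest window of most one-block genes. The block lay 101903 bp inside the gene, far from either end. SERHL2 followed with 4.13, 3.02 and 1.91, and KIF13A, a kinesin motor, with 3.44, 3.99, 4.07 and 2.90. The KIF13A block began 3 bp from the 5′ end of its 228510 bp gene.

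RPS29, a protein of the small ribosomal subunit, had 1.01, 1.73, 3.58, 3.35 and 4.05, METRNL, a secreted protein, had 1.81, 2.56, 2.11, 3.97 and 3.47, and PTP4A2, a phosphatase, had 3.91, 3.13, 2.76 and 2.76. The first pair was highest toward the 3′ side and PTP4A2 toward the 5′ side. In RPS29 and in SERHL2 another RNA shares the place. A window of RN7SL1, the 7SL RNA of the signal recognition particle, overlapped the RPS29 block on the opposite strand with a value of 1.43. The SERHL2 block was overlapped on the opposite strand by RN7SKP80, a 7SK pseudogene, at 3.55 and by windows of the pseudogene RRP7BP that reached 5.08. What these overlaps add to the RPS29 and SERHL2 values was not tested.

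The lowest strongest values, apart from the pair of flat histone genes, were 1.15 in MRFAP1, 1.27 in PSMD9 and 1.30 in KTI12. PSMD9, an assembly chaperone of the proteasome, read 1.25, 1.01 and 1.27, and MRFAP1 read 1.04, 0.88, 1.15 and 0.96. Blocks were thus also formed by windows near the low end of the table. A weakest window under 1 was present in 6 one-block genes (3.09%) and in 8.29% of several-block genes. Several-block genes more often had many windows, and the part of this in the difference was not tested.

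Some blocks were the same stretch counted under 2 genes. Windows of 30 one-block genes (15.5%) overlapped those of another gene, 25 of them on the same strand and 6 on the opposite strand. In several-block genes the share on either strand was 14.7%. There were 3 pairs in which both genes were one-block genes: ZNF286A with AC005324.4, RDH14 with the readthrough gene NT5C1B-RDH14, and CMTM1 with CKLF-CMTM1. The strongest windows were 3.76 and 3.89 in the first pair, 3.13 and 2.62 in the second and 2.87 and 2.84 in the last, and each such pair is one observation. No block overlapped any of 1562 RefSeq miRNA hairpins. The same count was not made for several-block genes, so it cannot be read as a trait of one-block genes.

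Blocks were mostly short. With 3 windows (150 bp) there were 116 one-block genes, 13.6% of the 855 genes with that number. There were 42 with 4 windows, 24 with 5, 5 with 6, 5 with 7 and 2 with 8, so that the share fell to 0.971% of 206 genes. The 2 longest blocks, of 400 bp, were in HIST1H2AC and in GALNT7, a glycosyltransferase that adds to O-linked sugars, whose values ran 2.75, 2.56, 2.42, 1.95, 1.28, 1.80, 2.01 and 3.03. GALNT7 was thus high at both ends and low in between.

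The strongest signal value per gene had a median of 2.48 in one-block genes (quartiles 2.13 and 2.85) and 2.31 in several-block genes (quartiles 2.01 and 2.62). The groups overlapped over nearly their whole range, from 1.00 to 6.76 against 0.96 to 5.22. A value of at least 3 was reached by 34 one-block genes (17.5%) and by 9.12% of several-block genes. A window with p listed as 0 was present in 24 (12.4%) and 6.54%. The weakest windows differed in the same direction, with medians of 1.72 and 1.48. A lowest value falls as more windows are listed, and 116 of 194 one-block but 739 of 2522 several-block genes had 3 windows. The weakest values were not compared within a number of windows. Within each number of windows from 3 to 8 the one-block median was the higher one, from 2.36 against 2.17 with 3 windows to 2.82 against 2.35 with 5. Fewer windows had been tested in one-block genes, a median of 24 per gene against 44. Among the genes with the most tested windows (55 to 386) the medians were 2.40 and 2.32, from only 18 one-block and 887 several-block genes.

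**Figure D2:**
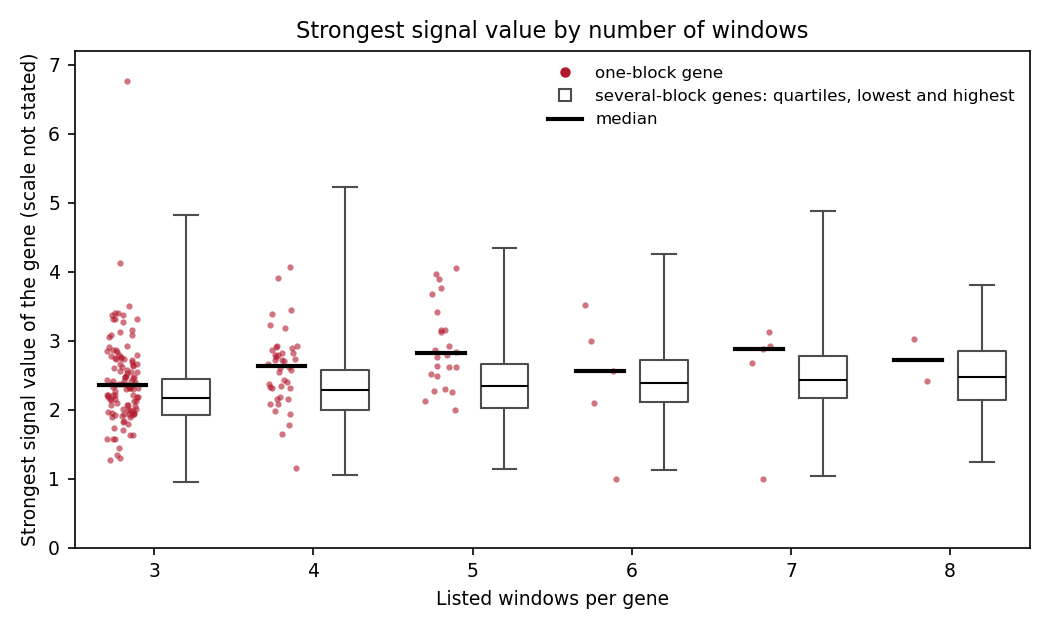
Strongest signal value per gene (scale not stated) against the number of listed windows, with 1 point per one-block gene and, for several-block genes, a box from the lower to the upper quartile with whiskers to the lowest and highest gene. The black lines are medians, and the one-block medians of 2.36, 2.64, 2.82, 2.56, 2.88 and 2.72 lie above the several-block medians of 2.17, 2.28, 2.35, 2.39, 2.43 and 2.48, with the points spread over the boxes.

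Genes next to the limits of the rule had medians below, above or close to those of one-block genes. Genes with 2 touching windows (418 genes) had a median strongest value of 2.20, against 2.36 for one-block genes with 3. The 11 genes with 9 touching windows, the most listed for any coding gene, had 2.95, against 2.72 for the 2 with 8. Further windows of these 11 genes may be unlisted. In 82 genes with 3 to 8 windows a single unlisted window parted 2 runs. Their median was 2.50, against 2.48 for all one-block genes. The 626 genes in which no window touched another had 2.15.

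Most blocks lay at the 5′ end of the gene. All windows of 175 one-block genes were inside the RefSeq interval of the gene, and with each gene cut into 10 equal parts the middle of the block was in the 5′-most part in 108 of them. The other parts held 5 to 11 blocks each. The strongest window was within 500 bp of the 5′ end in 102 of 175 genes (58.3%, Wilson 95% interval 50.9% to 65.3%). In several-block genes it was there in 710 of 2255 (31.5%, 29.6% to 33.4%), in genes with 1 or 2 windows in 30.6% and in genes with 9 in 26.7%, which joins 38.3% on the plus and 15.8% on the minus strand. No coding gene had more than 9 listed windows, so genes with 9 may have had further windows that are not listed. What such a limit adds to their values and to their strand difference was not tested. The median distance was 314 bp in one-block and 3741 bp in several-block genes. The genes themselves were long, with medians of 41070 and 33480 bp.

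The 5′ position was seen on both strands, with 61.0% of one-block genes on the plus strand and 54.7% on the minus strand, against 30.7% and 32.3% of several-block genes. It was seen with 3 windows (51.9% against 30.6% of several-block genes), with 4 (65.8% against 28.7%) and with 5 (86.4% against 31.9%), while blocks of 6 to 8 windows were too few to order. With genes split into 3 equal parts by the number of tested windows, the share was higher in one-block genes in each part. It was 60.3% against 39.7%, 52.9% against 30.5% and 50% against 25.4% from the fewest to the most windows. These parts held 136, 39 and 18 one-block genes, and the shares use only those with all windows inside the RefSeq interval. Several-block genes were not without 5′ windows: the 5′ edge of their listed windows was within 500 bp of the 5′ end in 51.0%, against 60.0% of one-block genes. The rule itself ties these values: all windows of a one-block gene lie within 150 to 400 bp, so its strongest window sits with its 5′ edge, while the windows of a several-block gene are apart by definition. Windows can touch only within a stretch that was tested without a break, and position, exon length and touching cannot be told apart here.

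**Figure D3:**
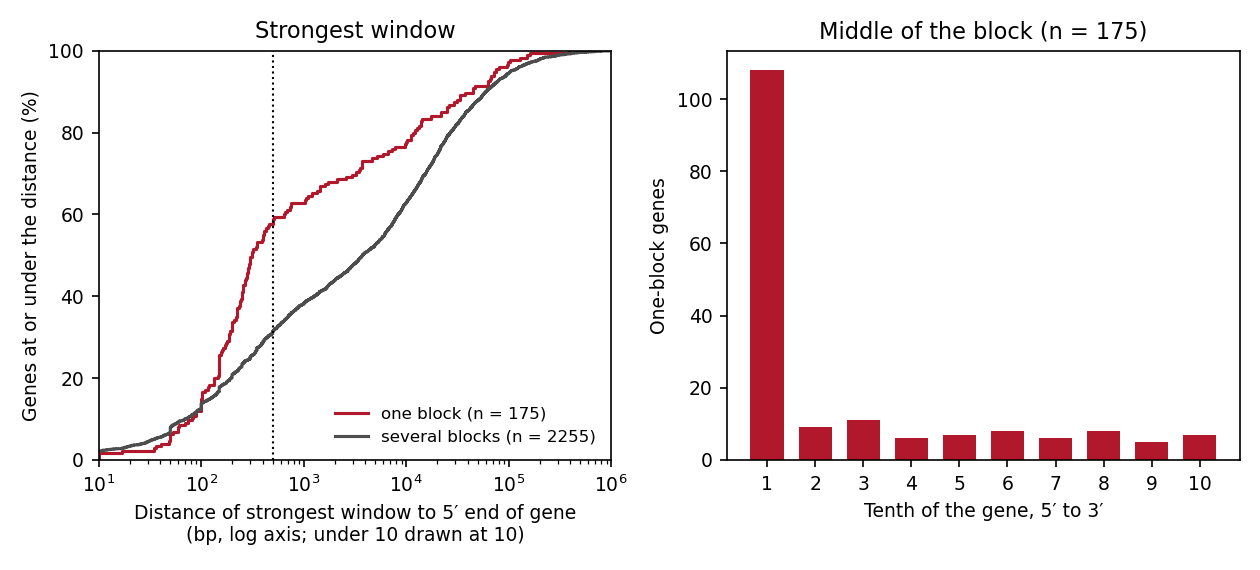
Left, share of genes (%) whose strongest window lies at or under a given distance from the 5′ end of the RefSeq gene (bp, log axis), for 175 one-block and 2255 several-block genes, with a dotted line at 500 bp, where the curves stand at 58.3% and 31.5%. Right, number of one-block genes by which of 10 equal parts of the gene, 5′ to 3′, holds the middle of the block, with 108 in the 5′-most part and 5 to 11 in each other.

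At the 3′ end, 7 of 175 one-block genes (4.0%) had the strongest window within 500 bp of the gene's end, against 2.08% of several-block genes. These 7 genes are named for this position alone. Histone genes of 397 to 522 bp made up 4 of them (HIST1H4H, HIST1H4I, HIST2H3C and HIST1H3F, the last with all windows tied). In genes this short any window lies within 500 bp of both ends. These 4 therefore count at the 3′ end and at the 5′ end by their length alone, and the difference from several-block genes rests on them. The others were KRT19, IRF7 and COA4. Blocks whose middle lay in the 3′-most of the 10 parts of the gene numbered 7. The exons, coding regions and untranslated regions under the blocks were not analysed here.

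Blocks near the 5′ end and blocks further in had similar signal. The median strongest value was 2.54 in the 102 near blocks and 2.42 in the 73 others, with quartiles of 2.20 and 2.84 against 2.12 and 2.88. Further-in blocks include GREB1, CNOT9, TMEM200A and IRF1. Both kinds had a median of 3 windows.

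Over all blocks together the 3′ side was more often the higher one. The first window was below the last in 113 of 194 blocks (58.2%) and above it in 67 (34.5%), with a median difference of first minus last of -0.12. Most of this excess came from blocks of 3 windows, with 71 below and 36 above. In blocks of 4 the counts were 21 and 19 with a median difference of -0.01, in blocks of 5 they were 15 and 8, and blocks of 7 and 8 were even. Of 176 blocks with a single strongest window, this was the 5′ window in 34 (19.3%), an inner window in 78 (44.3%) and the 3′ window in 64 (36.4%). If every window of a block had the same chance, an inner one would be strongest in 42.6%. Runs of 3 or more touching windows in several-block genes had the same order, with 23.4%, 42.6% and 33.9% of 704 runs. Their mix of lengths differed, and equal chances would give an inner share of 40.5%. The first window of these runs was below the last in 405 of 723 (56.0%) and above it in 290 (40.1%). The median of first minus last in the runs was -0.1. RPS29 and METRNL are blocks that were higher on the 3′ side and PTP4A2 and GREB1 on the 5′ side.

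In blocks of 3 windows the medians were 1.90, 2.07 and 2.05 from 5′ to 3′. In blocks of 5 they were 1.94, 2.09, 2.35, 2.08 and 2.09. The quartiles of neighbouring windows overlapped throughout. No dip between higher windows was seen in 115 of 194 blocks (59.3%), which counts blocks that rose to 1 top and fell, as in BTG1, together with those that only rose, only fell or were flat. In runs of several-block genes the share was 62.0%. Further, 5 blocks had the same value in all windows: HIST1H3F, HIST1H2BI, TBC1D12 (1.71), CASC4 (1.79) and MAPK1IP1L (1.74), each named because the count is small.

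**Figure D4:**
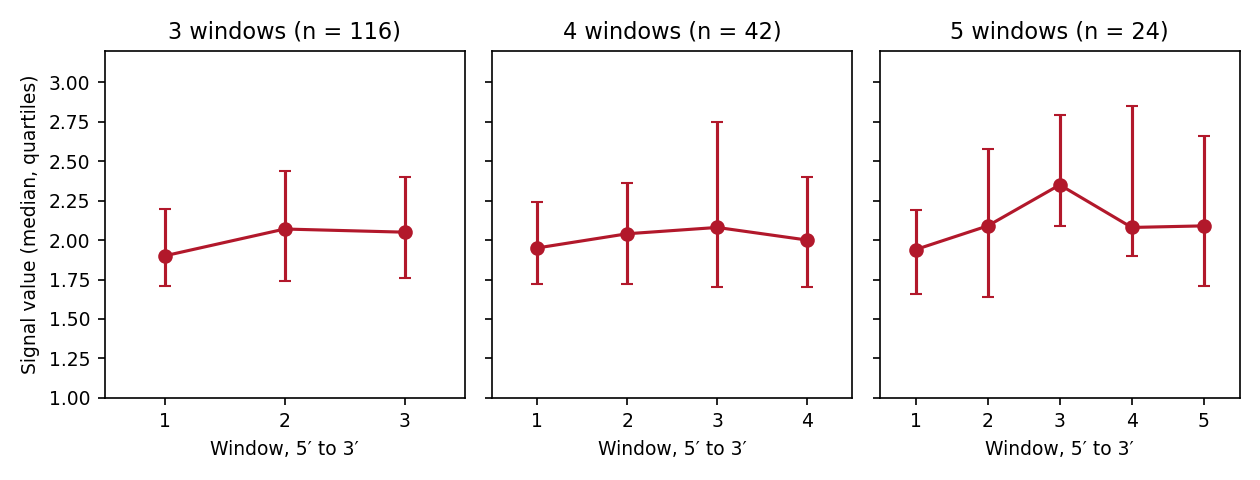
Median signal value (scale not stated) of each 50 bp window from 5′ to 3′ in one-block genes with 3 (116 genes), 4 (42 genes) and 5 windows (24 genes), with bars from the lower to the upper quartile and a vertical axis that starts at 1. The first window has the lowest median in each panel (1.90, 1.95 and 1.94), and the bars of neighbouring windows overlap.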

How the data were processed

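RNA from SNU638 cells was sequenced in 2 IP-YTHDF1 and 2 Input libraries, which were stranded and depleted of ribosomal RNA. The submitters' processing notes name STAR 2.7.3a and GRCh38; the peak caller is not given in the sources used here. The authors deposited 1 table for both groups. Its signal value is used as a score, and its rank, p-value and q-value per window are the authors' deposited values, with q of at most 0.05. A p-value of 0 is kept as listed. The table has 0 columns of a single library, so no library was compared with another, depth is unknown and no test was run.

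Of 26820 rows, 1 exact repeat was dropped. Starts were read as counted from 1: of 23172 coding windows in a RefSeq interval, 48.6% then lay a whole number of 50 bp steps from its lowest position, and 1.41% when read from 0. Windows touched if a start was no more than 1 bp after the previous end. Windows tested per gene were computed as q times the number of listed windows over p, for the window with the largest p (p above 1e-14). This takes p-values as adjusted by the Benjamini-Hochberg method within each gene. Genes were matched to RefSeq coding symbols or unambiguous synonyms of GRCh38.p14 (185 of 194, 95.4%), and distances to gene ends use the 175 with all windows inside. The block count and the count of tested windows were checked on simulated data. Scripts ran under Python 3.11.15 with NumPy 2.4.6, pandas 2.3.3, matplotlib 3.10.9 for the figures and SciPy 1.17.1 for the intervals.

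The members and gene lists were chosen with earlier results of these data known. Genes named are IRF1 and YTHDF1, members on the IFN-γ and m6A lists, the 8 largest and 5 smallest strongest values, members with 8 windows and, from each other list, the 3 largest; others are said to be picked later, and genes are also named for their printed sequence or as part of an overlapping pair. Alternatives were the q-value limit, the gap, the number of windows, overlapping genes and the signal limit, and, chosen after seeing the data, the distance to the 5′ end, runs in several-block genes, the GGAC motif and a shift of 1 base.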

Additional observations from a re-analysis of the deposited data

How the results depend on the processing

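No paired analysis was possible because each window has 1 value for all libraries together. The number of one-block genes was 194 and rose to 300 (11%) when a gap of 50 bp was allowed, to 428 (15.8%) with 200 bp and to 612 (15.7%) with 2 to 8 windows. The share was 11.2% at a q-value of at most 0.001, 9.55% with 3 to 5 windows and 11.8% with signal values at or above the table median. The difference in median strongest value (one block minus several) was 0.17 and kept its sign in all 11 alternatives. It was 0.36, 0.46 and 0.45 with 4, 5 and 7 windows. Among genes with the most tested windows (55 to 386), which held only 18 one-block genes, it was 0.08. An inner window was strongest in 44.3% of blocks, in 53.7% by smallest p-value, and in 34.6%, 52.5%, 68.2%, 100% and 0.0% of blocks of 3, 4, 5, 7 and 8 windows, the last of only 2 blocks. The strongest window was within 200 bp of the 5′ end in 33.7% of one-block genes. GGAC in place of DRACH was found in 17.2% of covered windows. The causes of these changes were not tested. The planned search of whole blocks for DRACH and the assignment to transcript regions were not run, since no genome or exon annotation was used here. Depth, replicate spread and untreated cells are not in these values, and neighbouring windows are not independent.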
